A study of Homo sapiens with 17 samples.

Results

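The genes described here are 10 splicing regulators of the SR family and its relatives, grouped as genes with poison exons. They are SRSF1, SRSF2, SRSF3, SRSF4, SRSF5, SRSF6, SRSF7, SRSF11, TRA2A and TRA2B. An exon with a premature stop that met the rule given below was annotated for 7 of the 10. All 10 were chosen by name from the 18869 genes listed. The data come from Ribo-STAMP in HEK293T, an established human embryonic kidney line, in which RNA touched by ribosomes is marked by C-to-U edits. RPS2-STAMP cells express the editing enzyme APOBEC1 fused to the ribosomal protein RPS2, and Control-STAMP cells express APOBEC1 without RPS2. Both kinds of cell were made with lentivirus, induced with 50 ng/ml doxycycline for 24 h and crosslinked with formaldehyde. From each lysate an Input was kept, and RNA was immunoprecipitated (IP) with an antibody to PABPN or to PABPC. Of the 17 samples, 9 were RPS2-STAMP, 3 in each fraction. The other 8 were Control-STAMP, of which 2 were PABPC IPs, 3 were PABPN IPs and 3 were Inputs. The study describes the lysate as the cytoplasmic portion of the cells, and the sample labels state no fractionation.

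PABPN is the nuclear poly(A) binding protein, which coats the tail while it is being made, and PABPC is the cytoplasmic protein found on the tails of exported and translated mRNA. The comparison of their IPs asks with which of them the transcripts of a gene were recovered, and what level of ribosome-directed editing was listed for the gene in each fraction. For each gene and fraction the files hold 1 average TPM, which adds exonic and intronic reads, and 1 normalized EPKM, the editing level after subtraction of the control. Which samples the TPM averages include is not stated, so they may hold Control-STAMP samples too. For the EPKM formula the study refers to an earlier report, and it used only edits that passed a confidence cut. The formula is not in the sources used here, and EPKM is not read here as editing per transcript. Both measures are pooled over samples by the authors. Neither therefore has an SD or a test, and no difference between fractions has a replicate check. How many reads and edits lie behind each value is not given in the files. Values are per gene, so transcripts with and without a poison exon are counted together.

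SR proteins bind exonic enhancers through RNA recognition motifs and recruit the splicing machinery through domains rich in arginine and serine. Many of them limit their own amount: when the protein is abundant, its pre-mRNA is spliced to include an exon, or to remove an intron, in a way that brings a stop codon ahead of an exon junction. A ribosome that stops there leaves the transcript open to nonsense-mediated decay (NMD). The poison exons of this family lie in some of the most conserved stretches of mammalian genomes.

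All 10 genes had at least 1 transcript annotated as an NMD target in GENCODE release 44 on hg38, from 1 each for SRSF5, SRSF6 and TRA2B to 6 for SRSF7. In 7 of them an NMD transcript had its stop codon in an exon that overlapped no exon of the canonical transcript and lay inside the canonical coding region. Exons of this kind are shown because the genes are grouped by their poison exons. Where a gene had several, the exon used by the most transcripts was taken, and the longest in a tie. NMD transcripts marked as incomplete or weakly supported were left out. Whether an exon so chosen is the one by which the gene limits its own amount was not tested. Each sequence starts 20 bases inside the intron and ends with the premature stop codon, which is in capitals. The rest of the exon, untranslated in the NMD transcript, is left out.
SRSF3: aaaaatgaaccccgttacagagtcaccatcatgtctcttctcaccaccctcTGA
SRSF4: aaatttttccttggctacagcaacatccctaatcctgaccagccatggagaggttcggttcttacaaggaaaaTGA
SRSF6: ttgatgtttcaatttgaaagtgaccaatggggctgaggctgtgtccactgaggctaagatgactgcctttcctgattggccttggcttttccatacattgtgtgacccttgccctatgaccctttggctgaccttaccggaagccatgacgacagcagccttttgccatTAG
SRSF7: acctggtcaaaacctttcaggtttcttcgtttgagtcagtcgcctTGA
SRSF11: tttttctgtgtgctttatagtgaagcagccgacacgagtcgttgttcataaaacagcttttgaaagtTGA
TRA2A: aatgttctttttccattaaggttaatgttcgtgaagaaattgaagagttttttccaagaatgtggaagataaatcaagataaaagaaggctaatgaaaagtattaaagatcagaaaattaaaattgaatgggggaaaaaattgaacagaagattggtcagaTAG
TRA2B: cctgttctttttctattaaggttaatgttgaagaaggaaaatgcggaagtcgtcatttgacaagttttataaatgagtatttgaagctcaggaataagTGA

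The SRSF3 stretch is chr6:36599801-36599854 on the plus strand, in an exon of 456 bases between canonical exons 3 and 4. That of SRSF4 is chr1:29166009-29166084 on the minus strand, in an exon of 175 bases between exons 1 and 2, an intron from which NMD transcripts take further exons. That of SRSF6 is chr20:43459133-43459304 on the plus strand, in an exon of 268 bases between exons 2 and 3. All of these exons are intronic to the canonical transcript. The SRSF7 stretch is chr2:38749319-38749366 on the minus strand, in an exon of 449 bases between exons 3 and 4. That of SRSF11 is chr1:70231839-70231908 on the plus strand, in an exon of 117 bases between exons 2 and 3.

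The TRA2 paralogs shared bases at the start of their exons. The TRA2A stretch is chr7:23522289-23522452 and that of TRA2B is chr3:185931772-185931872, both on the minus strand, in exons of 301 and 276 bases, and both lie between canonical exons 1 and 2. They share a run of 15 bases, attaaggttaatgtt, of which 6 lie in the intron and 9 in the exon. It is the longest run shared by any pair of the 7 sequences. Within the parts of the exons shown, up to the stop codon, the longest was one of 10 bases in SRSF4 and TRA2B. The stop codon was TGA in 5 of the 7 sequences and TAG in SRSF6 and TRA2A, and all 7 exons followed an AG at the end of the intron. For SRSF1, SRSF2 and SRSF5 this annotation lists no exon that met the rule, so none is shown.

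**Figure D1:**
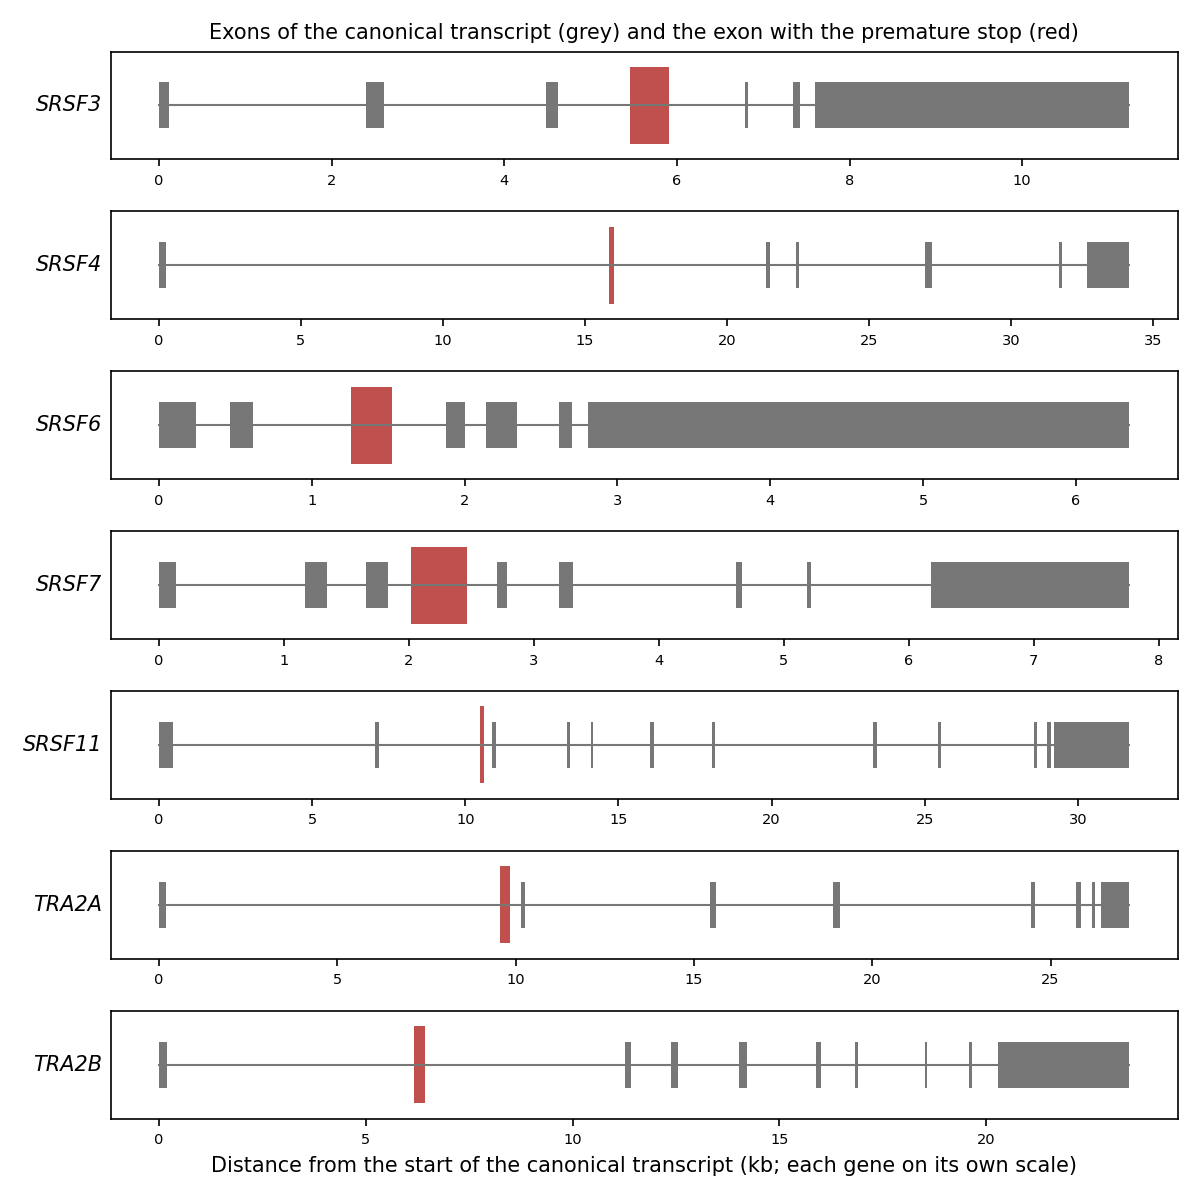
Maps of the canonical exons (grey) and the exon with the premature stop codon (red) of 7 genes, by distance in kb from the start of the canonical transcript, each gene on its own scale. The red exon lies between canonical exons 1 and 2 in SRSF4, TRA2A and TRA2B, 2 and 3 in SRSF6 and SRSF11, and 3 and 4 in SRSF3 and SRSF7.

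The genes are spread over 8 chromosomes. SRSF1 is at chr17:58000919-58007346 and SRSF2 at chr17:76734115-76737333, both on the minus strand. SRSF4, at chr1:29147743-29181900 on the minus strand, shares its chromosome with SRSF11, at chr1:70205682-70253052 on the plus strand. SRSF5 lies at chr14:69726900-69772005 and SRSF6 at chr20:43457893-43466046, both on the plus strand, as does SRSF3 at chr6:36594353-36605600. SRSF7 lies at chr2:38743599-38751494, TRA2A at chr7:23504780-23532041 and TRA2B at chr3:185914558-185938103, all on the minus strand. On the opposite strand MFSD11 covers 45.6% of SRSF2. The authors took overlapping regions out of their annotation, so part of SRSF2 may not have been counted. Read-through genes share the loci of SRSF1, SRSF2 and SRSF6 in GENCODE release 44, and the authors left such transcripts out. SRSF1, SRSF2, SRSF3 and SRSF6 also have processed pseudogene copies, from 1 for SRSF1 to 5 for SRSF3, and reads could be split with them.

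All 10 genes belonged to the comparison set, the 9607 protein-coding genes that reached 5 TPM in the PABPN IP as well as the PABPC IP. Each lay above the median TPM of that set in all fractions. SRSF4 and SRSF11 did so only slightly in the PABPC IP, at the 54.4th and the 56.7th percentile. The median TPM of the 10 genes was 79.5 in the Input, 158 in the PABPN IP and 131 in the PABPC IP. The medians of the comparison set were 15.8, 38.4 and 28.9. All 10 had a higher TPM in each IP than in the Input. This was usual, since 92.5% of the comparison set did so.

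SRSF1, the prototype SR protein, and SRSF4, SRSF5 and SRSF6, which resemble each other closely, carry an RNA recognition motif followed by a degenerate copy. SRSF1 had a TPM of 246 in the Input, 294 in the PABPN IP and 554 in the PABPC IP. It was thus highest with PABPC. SRSF4 had a TPM of 26.3 in the Input, 83.8 in the PABPN IP and 33.4 in the PABPC IP. SRSF5 had 26.8, 102 and 48.3 TPM in the same order. SRSF6 had 114, 347 and 187 TPM. For SRSF4, SRSF5 and SRSF6 the PABPN IP was the high fraction, and the PABPC IP lay between it and the Input.

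SRSF2, SRSF3 and SRSF7 are classical SR proteins without such a copy. SRSF2, a factor concentrated in nuclear speckles, was the most abundant of the 10 genes in all fractions, with a TPM of 326 in the Input, 666 in the PABPN IP and 648 in the PABPC IP. Its IPs were close to each other. SRSF3, the smallest SR protein and an adaptor for mRNA export, had a TPM of 114 in the Input, 158 in the PABPN IP and 205 in the PABPC IP. SRSF7, which also serves as an export adaptor, had 93.7, 191 and 144 TPM. In TPM as deposited, the order of the IPs therefore differed between these export adaptors. SRSF3 was higher in the PABPC IP and SRSF7 in the PABPN IP. The order for SRSF7 turned under another scaling.

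SRSF11 and the TRA2 proteins are more distant relatives; TRA2A and TRA2B are the human counterparts of the fly sex determination factor Transformer 2. SRSF11 had a TPM of 30.0 in the Input, 157 in the PABPN IP and 36.3 in the PABPC IP. No other gene of the 10 had so large a ratio between its IPs. TRA2A had a TPM of 65.4 in the Input, 98.5 in the PABPN IP and 119 in the PABPC IP. TRA2B had 39.6, 73.0 and 66.4 TPM, its IPs being close to each other. TPM was highest in the PABPN IP for 7 of the 10 genes, against 57.5% of the comparison set, and in the PABPC IP for SRSF1, SRSF3 and TRA2A.

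**Figure D2:**
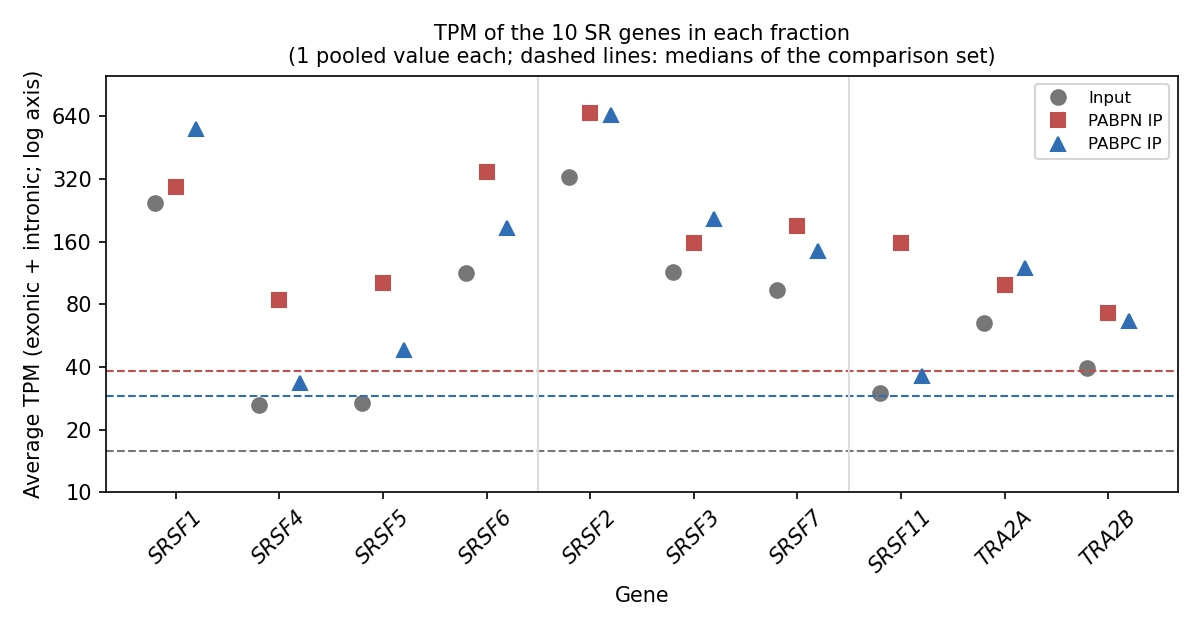
Average TPM (log axis) of the 10 genes in the Input, PABPN IP and PABPC IP, 1 pooled value each, grouped by protein family, with the medians of the comparison set as dashed lines. SRSF2, SRSF4, SRSF5, SRSF6, SRSF7, SRSF11 and TRA2B have their highest value in the PABPN IP. SRSF1, at 554 TPM, SRSF3 and TRA2A have theirs in the PABPC IP.

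TPM is relative within a fraction, and most genes of the comparison set had a higher TPM in the IPs than in the Input. Ratios were therefore taken as log2 of TPM + 0.5 and centred on the median of the comparison set. That median was 1.10 for the PABPN IP over the Input, 0.95 for the PABPC IP over the Input and -0.19 for the PABPC IP over the PABPN IP before centring. The centred values say whether a gene gained more or less than the typical gene. The ratios share columns and are given side by side.

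For the PABPN IP over the Input, 4 of the 10 genes lay above 0.5, against 23.7% of the comparison set. They were SRSF11 at 1.27, SRSF5 at 0.80, SRSF4 at 0.55 and SRSF6 at 0.50, the last barely past the threshold. SRSF11 was at the 96.4th percentile of the comparison set. At the other end, and below 0 only after centring, SRSF1 was at -0.85, SRSF3 at -0.63 and TRA2A at -0.52, and SRSF1 was at the 7.96th percentile. SRSF2 at -0.075, SRSF7 at -0.079 and TRA2B at -0.23 were nearer the typical gene and likewise above 0 without centring. The genes thus spread to both sides of the typical gene. Their median was -0.077, and its sign turned without centring and for the mean. The count above 0.5 was 2 with a limit of 1 TPM for the comparison set or with every gene used for centring, 1 at a threshold of 1, and 7 or 8 without centring.

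For the PABPC IP over the Input, 0 of the 10 genes lay above 0.5, against 9.02% of the comparison set, a count near that background. Without centring it was 6 or 8. The highest were SRSF1 at 0.22 and SRSF2 at 0.035. The lowest, below 0 only after centring, were SRSF11 at -0.68, the 11.1th percentile, and SRSF4 at -0.61, the 13.2th percentile. The remaining 6 lay between -0.34 for SRSF7 and -0.090 for TRA2A, also after centring only. The genes lay closer together here than in the PABPN IP over the Input. The median was -0.17, and its sign turned when every gene with a TPM was used for centring and without centring.

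Between the IPs, 4 genes lay below -0.5 in the PABPC IP over the PABPN IP, against 31.1% of the comparison set. These were again SRSF11 at -1.91, SRSF4 at -1.12, SRSF5 at -0.87 and SRSF6 at -0.70. SRSF11 was at the 2.98th percentile, with a fold of 0.266 relative to the typical gene, while the others lay between the 13.8th and the 24.8th. The share of 4 in 10 was not far from that of all genes, and at a threshold of 1 the count was 2. On the PABPC side, SRSF1 at 1.10 and SRSF3 at 0.56 lay above 0.5, or 2 of 10 against 29.9% of the comparison set, and SRSF1 was at the 90.9th percentile with a fold of 2.15. TRA2A at 0.46, SRSF2 at 0.15, TRA2B at 0.054 and SRSF7 at -0.22 were within the threshold. The sign held under all 6 other scalings and pseudocounts for 7 genes and turned for SRSF2, SRSF7 and TRA2B. The median of the 10 genes was -0.084 and its sign turned as well, so that no direction of the family as a whole can be given.

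**Figure D3:**
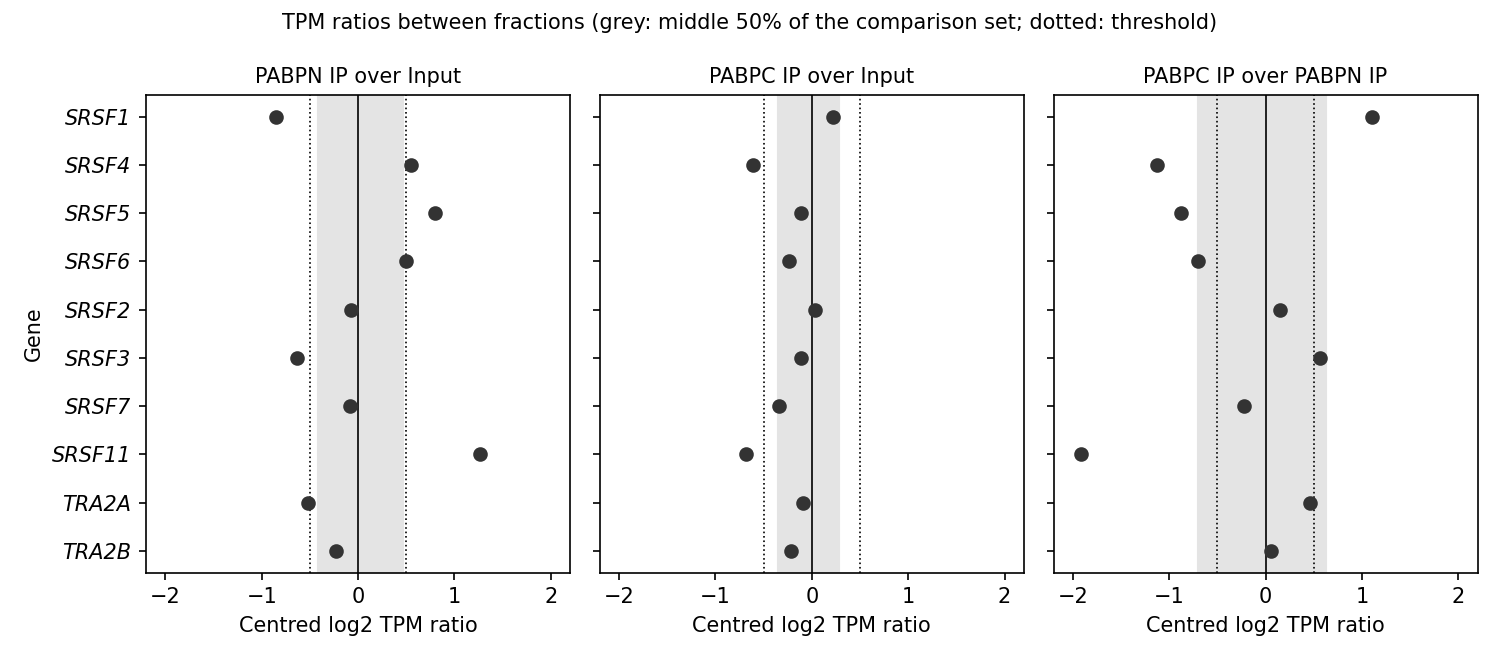
Centred log2 TPM ratios of the 10 genes for the PABPN IP over the Input, the PABPC IP over the Input and the PABPC IP over the PABPN IP, with the middle 50% of the comparison set in grey and the threshold of 0.5 dotted. SRSF4, SRSF5, SRSF6 and SRSF11 lie to the right of the dotted line at 0.5 in the left panel and to the left of that at -0.5 in the right panel, where SRSF1 has the highest value.

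Longer genes had lower ratios of the PABPC IP over the PABPN IP, and the SR genes are given beside this measure, taken as the genomic span of the canonical transcript. Over the comparison set the median of the centred ratio was 0.47 in the quartile of genes with the shortest span, up to 10.8 kb, and -0.43 in the quartile with the longest, from 62.1 kb. Spearman's rho between span and ratio was -0.34 across 9605 genes and -0.36 across the 10 SR genes, which are not independent replicates. None of the 10 fell in the quartile of the longest genes. SRSF4, with a canonical span of 34.2 kb, and SRSF11, with 31.7 kb, had the longest canonical transcripts of the 10 and the lowest ratios. TRA2A, with 27.2 kb in the same quartile, had a ratio of 0.46, and TRA2B, with 23.5 kb, one of 0.054. SRSF6, with 6.35 kb, had a ratio of -0.70, and 17.6% of the genes in its span quartile lay below -0.5. SRSF1, at 6.33 kb nearly as long as SRSF6, had the highest ratio. The place of SRSF5 depended on the measure: its canonical transcript spans 4.86 kb and the whole annotated gene 45.1 kb, which puts it in a quartile with SRSF4 and SRSF11 where 35.0% of genes lay below -0.5. With whole genes in place of canonical transcripts, rho was -0.31 across all genes and -0.66 across the 10. The part of gene span in the recovery of these transcripts was not tested.

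Against the comparison set as a whole, the EPKM of most of the 10 genes was high in the Input. The median EPKM was 0.133 in the Input, 0.0740 in the PABPN IP and 0.0671 in the PABPC IP, against 0.0273, 0.0334 and 0.0501 over the comparison set. However, 7 of the 10 lay in the quartile of that set with the highest Input TPM, whose median Input EPKM was 0.108. The Input held the highest EPKM of the fractions for 5 of the 10 genes, against 26.6% of the comparison set. These were SRSF1, SRSF2, SRSF3, SRSF6 and TRA2A. Without SRSF1, SRSF2 and SRSF6, which share their loci with other genes, the median in the Input was 0.0521 and the count was 2 of 7, near the share of all genes.

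SRSF1 had the highest EPKM of the 10 genes in every fraction, with 0.384 in the Input, 0.207 in the PABPN IP and 0.210 in the PABPC IP. Its values were almost the same in both IPs, although its TPM in the PABPC IP was far above that in the PABPN IP. SRSF4 had an EPKM of 0.0368 in the Input, 0.0994 in the PABPN IP and 0.0346 in the PABPC IP. For SRSF5 the EPKM was listed at 0 with PABPC as well as in the Input, and in the PABPN IP it was 0.158, at the 94.0th percentile of the comparison set. SRSF6 had an EPKM of 0.146 in the Input, 0.0647 in the PABPN IP and 0.000272 in the PABPC IP. In SRSF4, SRSF5 and SRSF6, then, both TPM and EPKM of the PABPN IP exceeded those of the PABPC IP, as they also did in TRA2B. A value at or near 0 can follow from subtraction of the control, and the edits behind it are unknown.

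SRSF2 had an EPKM of 0.252 in the Input, 0.0262 in the PABPN IP and 0.0674 in the PABPC IP. Its Input value was 9.62 times that in the PABPN IP, a wider gap than in any other of the 10 genes with values above 0 in both. SRSF3 had an EPKM of 0.120 in the Input, 0.0739 in the PABPN IP and 0.0893 in the PABPC IP. SRSF7 had 0.158, 0.112 and 0.163 EPKM, almost the same in the Input and the PABPC IP. SRSF2, SRSF3 and SRSF7 were lowest in the PABPN IP, as were SRSF1 and TRA2A.

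SRSF11 combined a TPM that was high in the PABPN IP with an EPKM that was highest in the PABPC IP. Its EPKM was 0.0521 in the Input, 0.0741 in the PABPN IP and 0.134 in the PABPC IP. TRA2A had an EPKM of 0.180 in the Input, 0.0500 in the PABPN IP and 0.0668 in the PABPC IP. TRA2B had 0.0234 EPKM with PABPN and a listed value of 0 elsewhere. SRSF5 and TRA2B were the only genes of the 10 at 0 in any fraction. Genes at 0 made up 21.9% of the comparison set for the Input and 17.4% for the PABPC IP.

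In the comparison of the IPs, 6 of the 10 genes had more EPKM with PABPC than with PABPN, against 56.4% of the comparison set. The 6 were SRSF1, SRSF2, SRSF3, SRSF7, SRSF11 and TRA2A, and the 4 with the opposite order were SRSF4, SRSF5, SRSF6 and TRA2B. The share was near that of all genes. With a gap of at least 1.5-fold on EPKM + 0.01 the count was 2, SRSF2 and SRSF11, against 44.3% of the comparison set. In the opposite order all 4 genes passed it, against 26.8%.

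**Figure D4:**
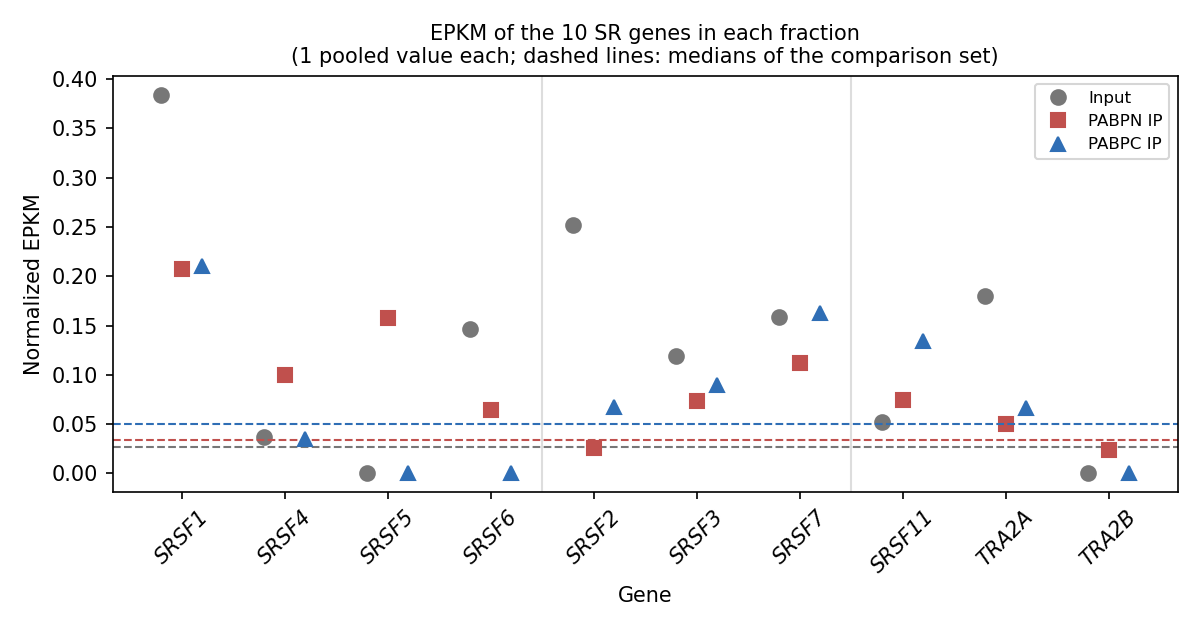
Normalized EPKM of the 10 genes in the Input, PABPN IP and PABPC IP, 1 pooled value each, with the medians of the comparison set as dashed lines. SRSF1 is highest in every fraction, SRSF5 and TRA2B are at 0 outside the PABPN IP, and SRSF6 is near 0 in the PABPC IP.

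Genes of higher TPM also had higher EPKM, and the 10 genes were compared with the quartile of the comparison set in which their own TPM lay. In the Input 7 of them, all except SRSF4, SRSF5 and TRA2B, lay above the median EPKM of their quartile. That median was 0.108 in the highest TPM quartile, which held 7 of the 10 genes. In the PABPN IP 7 of the 10 again lay above, all except SRSF2, TRA2A and TRA2B, and the median of the highest quartile was 0.0562. In the PABPC IP 3 of the 10, SRSF1, SRSF7 and SRSF11, lay above, and the median of the highest quartile was 0.110. SRSF2, SRSF3 and TRA2A, all in the highest TPM quartile of the PABPC IP, were between the 31.7th and the 40.7th percentile of it in EPKM. SRSF6, in the same quartile, was lower, at the 12.3th percentile. With PABPC 3 of the 10 were thus above the median of their quartile, against 7 in each other fraction, a difference that was not tested. Some genes lay close to that median on either side. In the Input SRSF3 was at the 54.1th percentile of its quartile and SRSF4 at the 46.7th. In the PABPN IP SRSF6 was at the 55.1th and TRA2A at the 46.6th.

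The other SR proteins, SRSF8, SRSF9, SRSF10 and SRSF12, spread to both sides as the 10 genes did. Their median centred ratio of the PABPC IP over the PABPN IP was -0.10, from -0.70 for SRSF10 to 0.72 for SRSF9. SRSF9, which is close to SRSF1 in sequence, had a TPM of 150 in the Input, 262 in the PABPN IP and 377 in the PABPC IP, the same order as SRSF1. Its EPKM was 0.431 in the Input, 0.251 in the PABPN IP and 0.270 in the PABPC IP, also like SRSF1 highest in the Input and close to equal in the IPs. SRSF10 had a TPM of 33.9, 115 and 61.7 in the same order of fractions. SRSF8 had a ratio of -0.35 and SRSF12, the least abundant with 7.50 TPM in the Input, one of 0.15. The EPKM of SRSF8, SRSF10 and SRSF12 was not highest in the Input. SRSF8 had 0.0660, 0.0378 and 0.127 EPKM in the same order, SRSF10 0.103, 0.0290 and 0.118, and SRSF12 0.00140, 0.0711 and 0.00841.

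Proteins with domains rich in arginine and serine that assist splicing without being SR proteins lay further to the PABPN side than the 10 genes. Of 19 such coactivators 18 were in the comparison set, and SREK1, with a TPM of 4.82 in the PABPC IP, was not. Of the 18, 16 lay below -0.5 in the PABPC IP over the PABPN IP, against 31.1% of the comparison set, with a median of -1.43 against -0.084 for the 10 SR genes. The lowest was NKTR at -2.92, with a TPM of 54.5 in the PABPN IP and 5.87 in the PABPC IP. The highest was RSRC1 at 0.65. EPKM was higher with PABPC than with PABPN for 8 of the 18, against 56.4% of the comparison set, and lower for 9; LUC7L was listed at 0 in both IPs. SRSF11, at -1.91, lay below the median of these coactivators, and SRSF4, at -1.12, above it.

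Kinases that phosphorylate SR proteins, with the importer TNPO3 that carries them into the nucleus, had a median of -0.71 over the 6 of 8 genes in the comparison set; CLK3 and CLK4 were below its limit. CLK1, CLK2, DYRK1A and TNPO3, or 4 of 6, lay below -0.5, against 31.1%. CLK1 was lowest at -2.38, with a TPM of 44.7 in the PABPN IP and 7.12 in the PABPC IP, and SRPK1 was highest at 0.13. In EPKM, SRPK1, CLK1, CLK2 and DYRK1A were higher with PABPC than with PABPN, and TNPO3 was the 1 gene of the 6 with the opposite order, at 0.301 with PABPN and 0.00320 with PABPC. SRPK2 had an EPKM of 0 in both IPs.

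The factors of the NMD pathway, to which poison exon transcripts are directed, had a median of -1.01 over all 10 of them, and 7 lay below -0.5, against 31.1% of the comparison set. The lowest was the kinase SMG1 at -2.38, with a TPM of 75.2 in the PABPN IP and 12.3 in the PABPC IP. EPKM was higher with PABPC than with PABPN for 7 of the 10 NMD factors and for 6 of the 10 SR genes, against 56.4% of the comparison set. The lists were described by their counts and medians, and their differences from the SR genes were not tested.

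**Figure D5:**
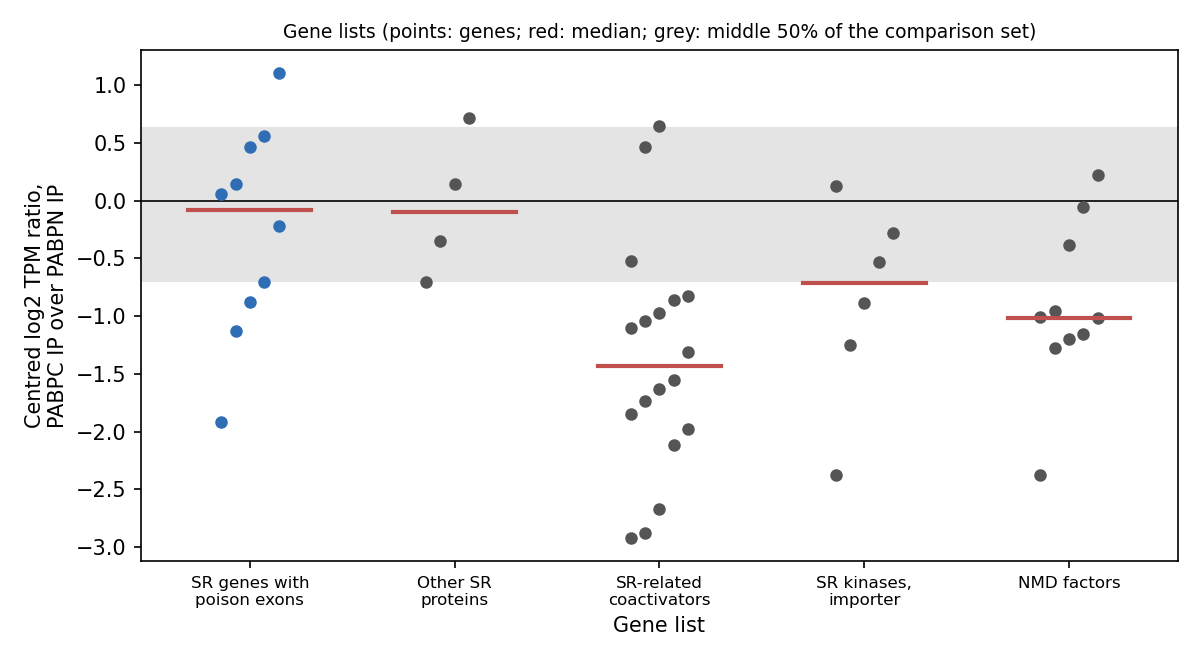
Centred log2 TPM ratio of the PABPC IP over the PABPN IP for each gene of the 10 SR genes and of the other lists that is in the comparison set (points), with the median of each list in red and the middle 50% of the comparison set in grey. The SR genes run from -1.91 to 1.10 around a median of -0.084, and the coactivators have a median of -1.43.

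Among the 9549 genes of the comparison set left after the 10 SR genes, 38 genes of the other lists and 10 genes without a symbol were set aside, the profile nearest to the medians of the 10 SR genes over 6 values, log2 of TPM + 0.5 and of EPKM + 0.01 in each fraction, was that of SPIN1, at a Euclidean distance of 0.53. It was followed by YARS1 at 0.61, MOB1A at 0.63, WDR82 at 0.67 and EIF2S2 at 0.72. SPIN1 had a TPM of 61.9 in the Input, 145 in the PABPN IP and 152 in the PABPC IP, and an EPKM of 0.146, 0.0657 and 0.0541. The SR genes themselves lay farther from their medians than these genes did. That is no measure of how alike the SR genes are, since the 5 were picked as the nearest of 9549. Of the SR genes, SRSF3 was nearest at 0.92. SRSF5 was farthest at 5.40, followed by TRA2B at 5.31, both of which are listed at 0 EPKM outside the PABPN IP.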

How the data were processed

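The authors aligned the reads of the 17 samples to hg38 with STAR and counted them with featureCounts 2.0.2 on an annotation derived from GENCODE release 34. The deposited TPM signal is an average per fraction of exonic plus intronic TPM, and the deposited EPKM signal is the editing level after control subtraction; which samples were averaged, and how replicates were combined, is not given in the sources used here. TPM summed over all genes to 854272 in the Input, 975719 in the PABPN IP and 995724 in the PABPC IP. The study's methods give a minimum and an average number of reads over the STAMP libraries; the files hold no counts for a sample or for edits, so no interval is given.

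Because every value is pooled, no test was run, and limma on values per sample could not be used. Pseudocounts were 0.5 on TPM and 0.01 on EPKM. The comparison set held protein-coding genes that reached 5 TPM with PABPN and with PABPC. Percentiles are the share of that set below a value. The centring and counting were tested on simulated data. Exons, spans and sequences came from GENCODE release 44 on hg38, which differs from the annotation the authors used. Named genes are the 10 SR genes, the 4 other SR proteins, the highest and lowest of each list in the ratio of the PABPC IP over the PABPN IP, genes behind counts of 5 or fewer, and the 5 nearest profiles; 1 gene so selected is not reported here. The members and lists were chosen with earlier results of these data known, and the comparisons by span and by TPM quartile, as well as the TNPO3 EPKM, after values were seen. The count of genes with their highest EPKM in the Input was not planned either. Python 3.11.15 was used with NumPy 2.4.6, pandas 2.3.3 and, for figures, matplotlib 3.10.9.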

Additional observations from a re-analysis of the deposited data

How the results depend on the processing

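The medians of the centred TPM ratios lay near 0, and their sign depended on the centring. For the PABPN IP over the Input the median of -0.077 was 0.84 with totals made equal and 1.03 as deposited, both without centring, 0.074 as a mean, -0.14 with a TPM limit of 1, -0.16 with every gene and -0.047 with a pseudocount of 1. For the PABPC IP over the Input the median of -0.17 was 0.57 and 0.79 without centring, 0.042 with every gene and -0.082 with a TPM limit of 1. For the PABPC IP over the PABPN IP the median of -0.084 was 0.041 with a TPM limit of 1, 0.18 with every gene, -0.30 and -0.27 without centring, -0.25 as a mean, and -0.22 both for SRSF1 to SRSF7 and without SRSF1, SRSF2 and SRSF6, an alternative added after the data were seen. As deposited, with a TPM limit of 1 and with every gene, the change equals the shift of the reference median, by construction; for the other settings the cause was not tested.

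The count above 0.5 in the PABPN IP over the Input, 4, was 7 and 8 without centring, 2 with a TPM limit of 1 and with every gene, and 1 at a threshold of 1. In the PABPC IP over the Input it was 0 except without centring, where it was 6 and 8. The count of 4 below -0.5 between the IPs was 2 at a threshold of 1 and from 3 to 4 otherwise. The 6 genes with higher EPKM in the PABPC IP became 2 at 1.5-fold. Without SRSF1, SRSF2 and SRSF6 the median EPKM in the Input was 0.0521, and 2 of 7 genes in place of 5 of 10 had their highest EPKM there; the other EPKM medians moved by less than 1.5 times. Of 68 alternative values 40 were unmoved by this measure.

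No paired analysis was possible because every value is pooled over replicates, and for the same reason leaving out each replicate was not run. With no depth or replicate spread in the files, small differences between fractions cannot be told from error.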
